A study of Mus musculus with 33 samples.

Results

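The comparison set the liver transcriptome of shChREBP/L-G6pc-/- mice, which lack hepatic glucose-6-phosphatase and also received a short hairpin RNA against ChREBP, against that of shSCR/L-G6pc+/+ mice, which carry neither alteration. Its members were chosen by their sample titles, 9 libraries of the former and 8 of the latter, that is 17 of the 33 libraries of the series. The question was which genes changed in the glucose-6-phosphatase-deficient liver were at the control level where ChREBP was also reduced, and which were still or newly abnormal there. To place each gene, the 8 libraries of shSCR/L-G6pc-/- mice and the 8 of shChREBP/L-G6pc+/+ mice were read beside them. L-G6pc-/- mice were male C57BL/6J animals with a floxed G6pc gene and a tamoxifen-inducible Cre recombinase under the albumin promoter (SA-creERT2), so that the deletion was limited to hepatocytes, and L-G6pc+/+ mice were littermates without Cre. All 4 groups were aged 13 to 18 weeks at infection, received a self-complementary AAV2/8 vector expressing either shChREBP or a scrambled hairpin (shSCR) from a U6 promoter, and were then all given tamoxifen, so vector and drug were shared by the controls. The hairpin thus preceded the deletion of G6pc. Words such as back, stayed, became and after therefore compare parallel groups and do not follow a change over time. The liver was collected in the nonfasted state. Whether each library came from its own mouse is not given in the labels, so n counts libraries and p-values measure the spread between them.

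Glucose-6-phosphatase, encoded by G6pc, releases free glucose from glucose 6-phosphate in the last step of both gluconeogenesis and glycogen breakdown. Its loss causes glycogen storage disease type Ia, in which hepatocytes fill with glycogen and lipid and glucose 6-phosphate accumulates. ChREBP, encoded by Mlxipl, is a basic helix-loop-helix transcription factor that responds to sugar metabolites and binds carbohydrate response elements with its partner MLX. Its known targets include liver pyruvate kinase (Pklr), the fructose enzymes Khk and Tkfc, the lipogenic enzymes Acly, Acaca, Fasn and Elovl6, and the feedback genes Txnip and Arrdc4.

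The hairpin was directed at a stretch of 21 bases in exon 8 of Mlxipl, within the coding sequence, at chr5:135128544-135128564 on the plus strand of GRCm38. It is shown because it defines the intervention, together with places in the 3' untranslated regions of 3 genes that fell in the comparison and hold the same final 8 letters. The capitals mark the 8 letters AACTACAT at the 3' end of the target, which would pair with the start of the guide strand. The place in Aplp2 lies in exon 17 at chr9:31149582-31149602 on the minus strand, that in Ttpa in exon 5 at chr4:20029340-20029360 on the plus strand, and that in Dcun1d1 in exon 7 at chr3:35895079-35895099 on the minus strand.
Mlxipl target site: acccacatcttcaAACTACAT
Aplp2: atgtacagaacttAACTACAT
Ttpa: gaaaacttaacacAACTACAT
Dcun1d1: aattttcctggcaAACTACAT

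The libraries held 2005791 to 3546852 counted reads in shSCR/L-G6pc+/+ (median 2220881.5) and 1497843 to 2778910 in shChREBP/L-G6pc-/- (median 2422644). In a principal component analysis of the 17 libraries the first component, with 27% of the variance, ran from -27.5 to -11.8 in the controls and from 2.43 to 38.3 in shChREBP/L-G6pc-/-. Within the latter group s29 (33.6), s30 (38.3) and s32 (36.9) lay furthest out. Library s33, at 20.6, lay between these and the other 5 (2.43 to 12.2), nearer to s25 at 12.2 than to s29. The mean log2 level of the genes called higher was 5.23 in s33, 5.22 in s25 and 5.55 to 5.63 in s29, s30 and s32. On the second component s33 was the highest library (28.6). The 4 libraries s29, s30, s32 and s33 were grouped, and are called below those that stood apart. Counts of genes called are therefore given also without them for most gene lists. The summed level of 7 hepatocyte-defining markers ranged from 24091 to 27987 CPM, that is reads of a gene relative to the library size scaled by trimmed mean of M-values (TMM) normalization, in the controls and from 10418 to 19081 in shChREBP/L-G6pc-/-, and 5 of the 7 were called lower. Alb alone made up 12466 to 15323 CPM of the control sum, so this sum largely follows 1 gene. The sum over the longer list of 40 hepatocyte secretory and enzyme markers overlapped. It was 108650 to 133460 CPM in the controls (median 117160) and 83863 to 122790 CPM in shChREBP/L-G6pc-/- (median 95488). The 7 Kupffer cell markers summed to 881 to 1571 CPM in the controls and 1322 to 2157 in shChREBP/L-G6pc-/-, with 2 called higher. For sinusoidal endothelium (225 to 332 against 246 to 310 CPM), stellate cells (244 to 329 against 256 to 357 CPM) and cholangiocytes (12.7 to 40.1 against 16.5 to 40.1 CPM) the ranges overlapped and edgeR called no marker with all libraries, and the same held for lymphocyte, neutrophil and red cell markers. The stellate cell marker Col1a1 was called higher by limma-voom (log2 fold change 1.01, adjusted p = 0.045). Ighm, a lymphocyte marker, stood at -1.29 (edgeR adjusted p = 0.0658) and was called with no filter on low counts (adjusted p = 0.034) and on leaving out any of controls s4, s5, s6, s7 and s8 or s32 (adjusted p up to 0.0452). The endothelial marker Lyve1 (0.62, edgeR adjusted p = 0.0988) was called without s33 (0.0483). No marker was at 0 in all 17 libraries. Since the tissue was sequenced in bulk, fewer cells of a type and less RNA per cell cannot be told apart.

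The targeted gene Mlxipl (chr5:135089890-135138382) measured 449 to 612 CPM in the 8 controls (median 528) and 216 to 500 CPM in the 9 shChREBP/L-G6pc-/- libraries (median 441). The groups overlapped, with the highest shChREBP/L-G6pc-/- libraries inside the control range. The log2 fold change was -0.47 (SE 0.13, edgeR quasi-likelihood test, Benjamini-Hochberg adjusted p = 0.0112), and an exact two-sided permutation test over all 24310 regroupings of the 17 libraries gave a mean log2 difference of -0.52 (p = 0.00424, adjusted over 4 genes 0.00565). Without the 4 libraries that stood apart the difference was smaller, -0.17 on the log2 scale, and was not called (edgeR adjusted p = 0.427). Against shSCR/L-G6pc-/- the log2 fold change of Mlxipl was -0.57 (adjusted p = 0.00417). G6pc itself (chr11:101367561-101377903) ranged from 78.7 to 364 CPM in the controls (median 236) and from 117 to 470 CPM in shChREBP/L-G6pc-/- (median 218), with no detectable difference (log2 fold change 0.03, SE 0.28, adjusted p = 0.965; permutation p = 0.986). The reads come from the 3' end of transcripts, where they may still be counted after an upstream exon is deleted, so this value does not check the deletion.

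Pklr and Txnip, the carbohydrate response genes tested alongside them, were both higher than in the controls. Pklr measured 65.9 to 195 CPM in the controls (median 122) and 128 to 270 CPM in shChREBP/L-G6pc-/- (median 204), a log2 fold change of 0.77 (SE 0.16, adjusted p = 0.00105; permutation p = 0.00132, adjusted 0.00527). Most shChREBP/L-G6pc-/- libraries lay above the highest control, but the ranges overlapped. Txnip, an inhibitor of thioredoxin and of glucose uptake, measured 152 to 406 CPM (median 174) against 216 to 1198 CPM (median 487), a log2 fold change of 1.37 (SE 0.41, adjusted p = 0.0191; permutation p = 0.00263, adjusted 0.00527). Its spread was wide and the groups overlapped. In limma on the deposited normalized values its adjusted p was 0.0525.

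Of 10179 genes tested, 1347 (13.2%) differed between shChREBP/L-G6pc-/- and shSCR/L-G6pc+/+ at an adjusted p under 0.05. Of these 699 (6.87%) were higher and 648 (6.37%) lower, and scaling by library size alone gave 965 higher and 450 lower, with the median of all genes at 0.08 on the log2 scale instead of 0.01. The changes were larger upward, since 203 genes rose and 71 fell by over 2-fold, and 36 rose and 8 fell by over 4-fold. In 170 genes (1.67%) the 2 groups did not overlap, with 77 (0.756%) entirely above the controls and 93 (0.914%) entirely below. Without the 4 libraries that stood apart, 321 genes were called, 175 higher and 146 lower, and 310 of the 321 had been called with all libraries. All 1340 of the called genes that could be tested again kept their direction in that fit, and 1017 of them passed an unadjusted p of 0.05.

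For comparison, 329 genes (3.23%) differed between shSCR/L-G6pc-/- and the same 8 controls, 224 higher (2.2%) and 105 lower (1.03%). Between shChREBP/L-G6pc+/+ and these controls 549 genes (5.39%) differed, 220 higher (2.16%) and 329 lower (3.23%), and between shChREBP/L-G6pc-/- and shSCR/L-G6pc-/- 770 (7.56%), 339 higher (3.33%) and 431 lower (4.23%). Each gene was placed by both results. The 2 comparisons share their controls, so a chance deviation in the control libraries enters both, and the counts per class are read as a description. Among the 329 genes, 156 (47.4%) stayed called in the same direction in shChREBP/L-G6pc-/- and 2 (0.608%) were called in the opposite direction. As shares of all genes tested these classes were 1.53% and 0.0196%. A further 93 (28.3%) were back, which means not called and with a 95% interval of the fold change that lay within 1.5-fold of control on either side (0.914% of all genes). For the other 78 (23.7%) the interval reached beyond 1.5-fold, so they could be placed neither as back nor as changed (0.766%). Of the 1347 genes that differed in shChREBP/L-G6pc-/-, 1189 (88.3%, or 11.7% of all genes) had not been called in shSCR/L-G6pc-/-, and they are described as having become abnormal. For 661 of these 1189 the interval in shSCR/L-G6pc-/- was within 1.5-fold of control, and for 528 it was not. The difference between shChREBP/L-G6pc-/- and shSCR/L-G6pc-/- was itself called for 405 of the 1189, and for the remaining 784 a difference between the L-G6pc-/- groups was not shown. Without the 4 libraries that stood apart, 98 genes stayed, 109 were back and 223 became abnormal, and without control library s5 alone 61 were back.

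**Figure D1:**
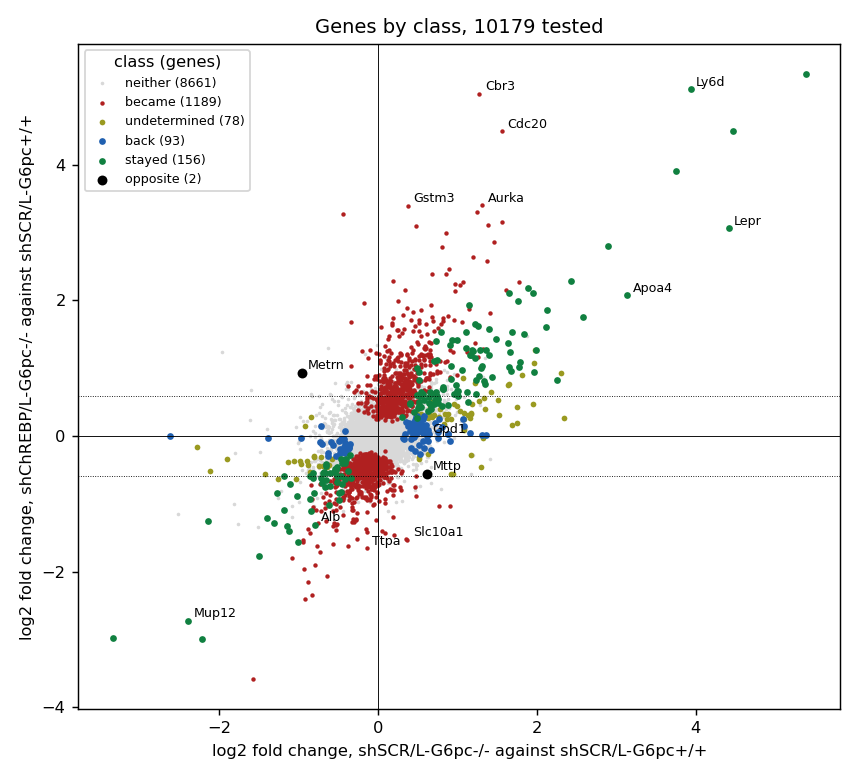
Each point is 1 of the 10179 genes tested. The horizontal axis is the log2 fold change of shSCR/L-G6pc-/- and the vertical axis that of shChREBP/L-G6pc-/-, both against shSCR/L-G6pc+/+, with dotted lines at 1.5-fold on the vertical axis. Colours mark the classes. The 156 genes that stayed (green) run along the diagonal, the 93 that were back (blue) lie near 0 on the vertical axis, and most of the 1189 that became abnormal (red) lie near 0 on the horizontal axis.

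The genes back at control included Khk, Gpd1, Fasn and Elovl5, enzymes of fructose, glycerol and fatty acid metabolism. Of the 93, 67 had been higher in shSCR/L-G6pc-/-, where their median log2 fold change was 0.52 against 0.10 in shChREBP/L-G6pc-/-, and 26 had been lower, with medians of -0.48 and -0.13. For 53 of the 93 the difference between the L-G6pc-/- groups was called, 43 lower and 10 higher in shChREBP/L-G6pc-/-. Khk, ketohexokinase, which phosphorylates fructose, measured 489 to 650 CPM in the controls (median 540), 1035 to 1380 CPM in shSCR/L-G6pc-/- (median 1100) and 516 to 860 CPM in shChREBP/L-G6pc-/- (median 645). Every shSCR/L-G6pc-/- library lay above every shChREBP/L-G6pc-/- library, and the latter overlapped the controls. Its log2 fold change against control was 1.07 (adjusted p = 6.03e-08) in shSCR/L-G6pc-/- and 0.25 (95% interval 0.02 to 0.48, adjusted p = 0.152) in shChREBP/L-G6pc-/-. The difference between the L-G6pc-/- groups was -0.82 (adjusted p = 9.02e-06). With scaling by library size alone Khk was still called against control (log2 fold change 0.32, adjusted p = 0.0301).

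Gpd1, the cytosolic glycerol 3-phosphate dehydrogenase that links glycolysis to glycerolipid synthesis, measured 266 to 374 CPM in the controls (median 299) and 248 to 370 CPM in shChREBP/L-G6pc-/- (median 295), after 403 to 658 CPM in shSCR/L-G6pc-/-. The ranges of the controls and shChREBP/L-G6pc-/- nearly coincided, with a log2 fold change of -0.00 (SE 0.11, 95% interval -0.22 to 0.21). Elovl5, which elongates polyunsaturated fatty acids, measured 422 to 907 CPM (median 687) in the controls and 391 to 1198 CPM (median 819) in shChREBP/L-G6pc-/-, a log2 fold change of 0.15 (SE 0.20) after 1.09 (adjusted p = 0.000924) in shSCR/L-G6pc-/-. Slc17a4, an organic anion transporter, had a log2 fold change of 0.04 (SE 0.12) after 0.88 (adjusted p = 9.08e-06), with 55.1 to 81.3 CPM in the controls and 58.4 to 102 CPM in shChREBP/L-G6pc-/-. Selenop, the plasma selenium carrier secreted by hepatocytes, stood at 0.60 (adjusted p = 9.77e-05) in shSCR/L-G6pc-/- and at 0.17 (SE 0.09) in shChREBP/L-G6pc-/-. For Gpd1, Elovl5, Slc17a4 and Selenop the difference between the L-G6pc-/- groups was called, at -0.62, -0.94, -0.85 and -0.43 on the log2 scale (adjusted p = 0.000185, 0.00255, 1.58e-05 and 0.00316).

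Sult5a1, a sulfotransferase, moved the other way. It measured 16.7 to 49 CPM in the controls (median 32.4), 6.44 to 26.1 CPM in shSCR/L-G6pc-/- (median 9.95) and 25.8 to 33.5 CPM in shChREBP/L-G6pc-/- (median 30.1). The last range lay inside that of the controls. The log2 fold change against control was -1.39 (adjusted p = 0.000398) and then -0.02 (SE 0.22), and the L-G6pc-/- groups differed by 1.36 (adjusted p = 0.000354). Igf1, insulin-like growth factor 1, was also lower in shSCR/L-G6pc-/- (log2 fold change -0.48, adjusted p = 0.00742) and back in shChREBP/L-G6pc-/- (-0.19, SE 0.11), although the L-G6pc-/- groups did not differ detectably (0.28, adjusted p = 0.0936).

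The lists of ChREBP-related and lipogenic genes were split between classes. In shChREBP/L-G6pc-/- 40.9% and 18.2% of their tested members were called, against 13.2% of all genes. Of 22 ChREBP partners and sugar-responsive targets, all tested, 11 were called higher in shSCR/L-G6pc-/- (list median 0.71 on the log2 scale, against 0.00 for all genes). In shChREBP/L-G6pc-/- 7 were higher and 2 lower, with a list median of 0.20 against 0.01 for all genes, and without the 4 libraries that stood apart 7 were higher (median 0.17). The 2 lower, both counted in the 40.9%, were Mlxipl (-0.47), the hairpin's own target, and Ppp1r3b (-0.87). Khk, Gpd1, the glucose transporter Slc2a2 (0.16, SE 0.13) and the lipid export gene Tm6sf2 (0.13) were back. Tkfc, Pklr, Txnip, Arrdc4 and Klf10 were among the 6 that stayed higher, and Rgs16 could not be placed. Of 22 lipogenic genes tested, 6 were higher in shSCR/L-G6pc-/- (median 0.60), and 3 were higher and 1 lower in shChREBP/L-G6pc-/- (median 0.03). With the 4 libraries left out edgeR called 0 of the 22 higher, where 6 were higher at an unadjusted p under 0.05 (median 0.06). Fasn, fatty acid synthase, was back, with a mean and SD of 828 ± 175 CPM over the 9 shChREBP/L-G6pc-/- libraries, 818 ± 528 CPM over the 8 controls and 2022 ± 499 CPM over the 8 libraries of shSCR/L-G6pc-/-. Its log2 fold changes were 0.02 (SE 0.28) and 1.31 (adjusted p = 0.00491). Acaca and Acly, acetyl-CoA carboxylase and ATP citrate lyase, stood at 0.31 (adjusted p = 0.318) and 0.43 (adjusted p = 0.189) in shChREBP/L-G6pc-/- after 1.53 and 1.75, with intervals too wide to place them. Elovl6 (0.83, adjusted p = 0.0289) and Me1 (0.51, adjusted p = 0.0298) stayed higher. Without the 4 libraries that stood apart the fold changes were larger, 1.01 and 0.56, but did not pass the threshold (adjusted p = 0.0558 and 0.0852). The calls were also lost on leaving out 1 library, for Elovl6 any of controls s1, s3, s4, s5, s7 and s8 or s28 (adjusted p up to 0.0666) and for Me1 any of controls s1, s2, s3, s4, s5 and s8 or s27 and s29 (up to 0.0734).

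**Figure D2:**
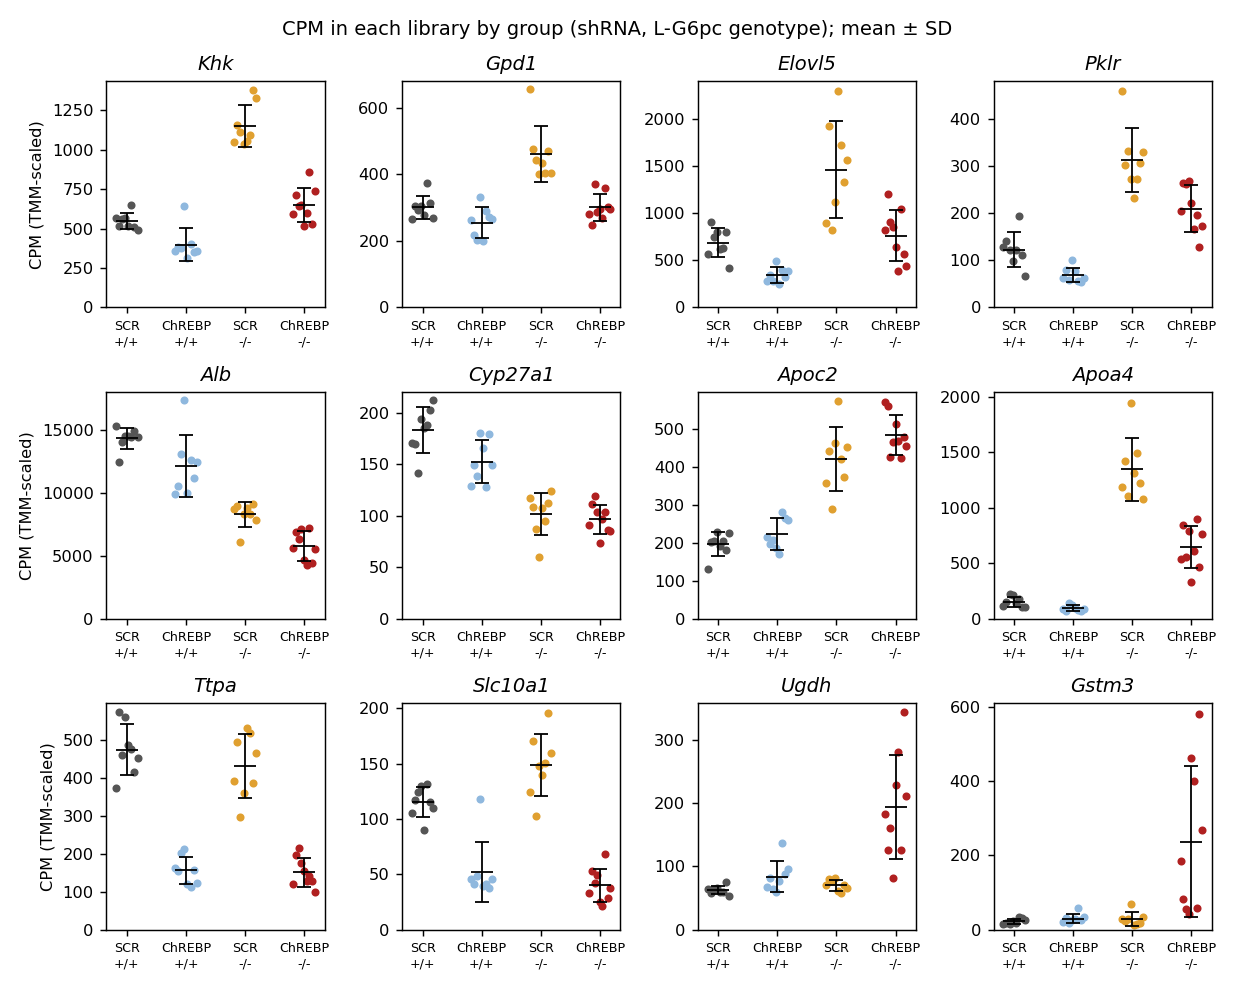
CPM (vertical axis, linear, starting at 0) of 12 genes in every library of the 4 groups, with the hairpin and the L-G6pc genotype on the horizontal axis. Points are libraries and bars the mean ± SD. Khk, Gpd1 and Elovl5 of shChREBP/L-G6pc-/- (right in each panel) overlap the controls (left), Alb, Cyp27a1, Apoc2 and Apoa4 do not, and Ugdh and Gstm3 reach their highest values in shChREBP/L-G6pc-/-.

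Among the 156 genes that stayed changed, 101 were higher and 55 lower than in the controls. Their fold change was nearer to control in shChREBP/L-G6pc-/- than in shSCR/L-G6pc-/- for 97 and further from it for 59, and the difference between the L-G6pc-/- groups was called for 19. Apoa4, an apolipoprotein of triglyceride-rich particles, measured 106 to 219 CPM in the controls (median 147), 1080 to 1949 CPM in shSCR/L-G6pc-/- (median 1268) and 331 to 898 CPM in shChREBP/L-G6pc-/- (median 613). The 3 ranges did not overlap. Its log2 fold change against control was 3.14 (adjusted p = 2.85e-14) and then 2.08 (SE 0.19, adjusted p = 5.22e-10), and the L-G6pc-/- groups differed by -1.06 (adjusted p = 0.000124). Gpi1, the glycolytic glucose 6-phosphate isomerase, followed the same order, at 52 to 77.1 CPM in the controls, 140 to 274 CPM in shSCR/L-G6pc-/- and 98 to 161 CPM in shChREBP/L-G6pc-/- (log2 fold changes 1.79 and 1.09, the latter with SE 0.12 and adjusted p = 8.77e-08). Lepr, the leptin receptor, was low in the controls (1.36 to 3.34 CPM) and reached 28.8 to 71.3 CPM and 7.77 to 44.5 CPM, log2 fold changes of 4.42 and 3.06 (SE 0.34, adjusted p = 1e-07). For Gpi1 and Lepr the L-G6pc-/- groups differed by -0.70 (adjusted p = 0.000125) and -1.35 (adjusted p = 0.000281).

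The fructose and glycolysis genes that stayed higher included Tkfc, triokinase, which measured 116 to 312 CPM (median 158) against 257 to 484 CPM (median 381). Its log2 fold change of 1.202 (SE 0.16, adjusted p = 2.34e-06) was close to the 1.16 of shSCR/L-G6pc-/-, and the L-G6pc-/- groups differed by 0.04 (adjusted p = 0.913). Klf10, a transcription factor induced by glucose, was higher by 0.95 (SE 0.31, adjusted p = 0.0343), a call that was lost on leaving out any of 8 single libraries (controls s2, s3, s4, s5 and s6, and s26, s27 and s32), with fold changes of 0.86 to 0.92 and adjusted p-values up to 0.0740 in those fits.

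Other genes stayed changed at much the same level. Apoc2, the cofactor of lipoprotein lipase, measured 130 to 230 CPM in the controls (median 204), 290 to 576 CPM in shSCR/L-G6pc-/- (median 432) and 426 to 573 CPM in shChREBP/L-G6pc-/- (median 469). All L-G6pc-/- libraries of either hairpin lay above all controls. The log2 fold change was 1.30 (SE 0.12, adjusted p = 9.07e-10) after 1.10. Cyp27a1, the sterol 27-hydroxylase of bile acid synthesis, measured 142 to 213 CPM (median 187) against 73.5 to 119 CPM (median 96.5), with every shChREBP/L-G6pc-/- library below every control and a log2 fold change of -0.92 (SE 0.11, adjusted p = 4.36e-07) after -0.85. Phlda3, a p53 target that inhibits AKT, rose from 2.43 to 8.68 CPM in the controls to 6.84 to 32.4 CPM (log2 fold change 2.18, SE 0.25, adjusted p = 1.22e-07). The imprinted fetal transcript H19 was at 0 to 0.913 CPM in the controls and 3.52 to 12.4 CPM in shChREBP/L-G6pc-/-, and Spink1, a trypsin inhibitor, at 0 to 1.94 and 3.88 to 23.5 CPM. Neither overlapped, and their fitted log2 fold changes of 4.50 and 3.91 (adjusted p = 2.06e-06 and 4.02e-06) rest on few control reads.

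Alb, serum albumin, fell in shSCR/L-G6pc-/- and further in shChREBP/L-G6pc-/-. It measured 12466 to 15323 CPM in the controls (median 14508), 6141 to 9118 CPM in shSCR/L-G6pc-/- (median 8553) and 4277 to 7241 CPM in shChREBP/L-G6pc-/- (median 5627). Every L-G6pc-/- library was below every control, and the L-G6pc-/- groups overlapped each other. The log2 fold change was -1.31 (SE 0.12, adjusted p = 5.22e-10) after -0.79, and the L-G6pc-/- groups differed by -0.52 (adjusted p = 0.0041). Ly6d, a membrane protein of the Ly6 family, was among the largest rises, at 2.02 to 20.1 CPM in the controls and 37.1 to 622 CPM in shChREBP/L-G6pc-/- (log2 fold change 5.11, SE 0.55, adjusted p = 6.07e-08). Ppp1r3g, a glycogen-targeting subunit of protein phosphatase 1, had the largest fold change (5.34, SE 0.94, adjusted p = 0.00013), but it ranged from 0.428 to 357 CPM in shChREBP/L-G6pc-/- against 0 to 6.39 CPM in the controls, and limma-voom gave an adjusted p of 0.207.

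**Figure D3:**
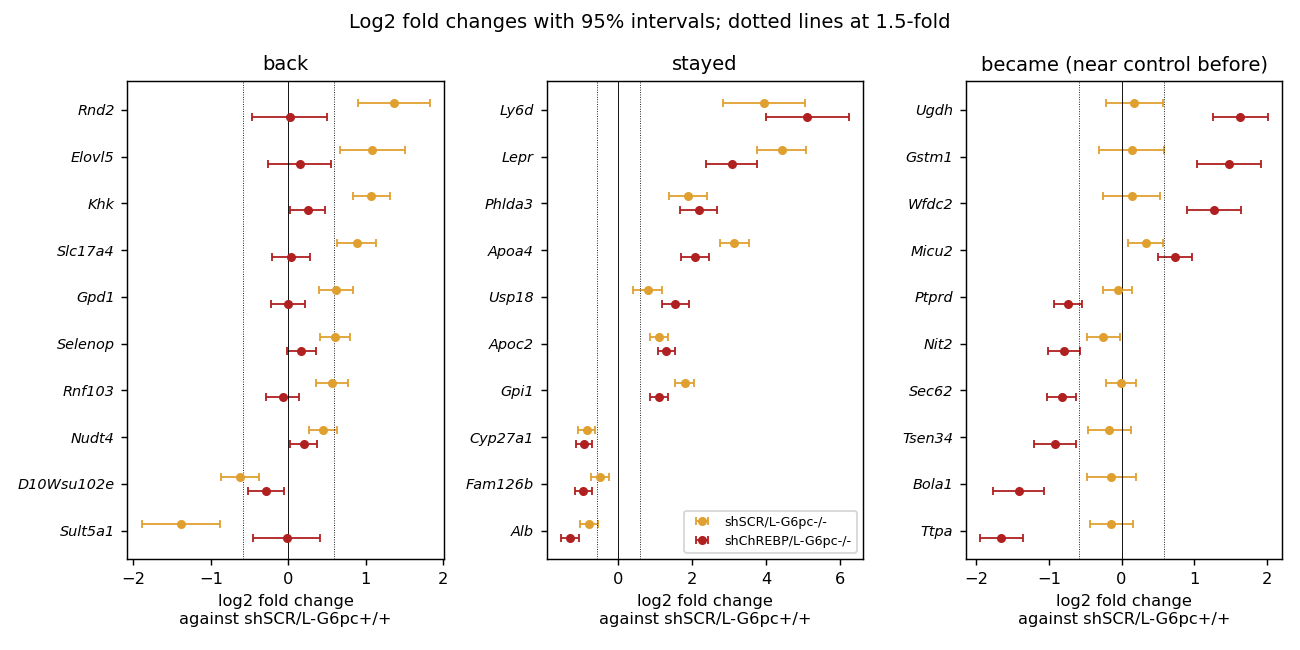
Log2 fold changes (horizontal axis) with 95% intervals of the 10 genes with the smallest p-values in each class, taken from the contrast that placed them, for shSCR/L-G6pc-/- (yellow) and shChREBP/L-G6pc-/- (red) against shSCR/L-G6pc+/+. Dotted lines mark 1.5-fold. In the left panel the red intervals lie within the dotted lines, in the middle panel both colours lie on the same side of 0, and in the right panel the yellow intervals lie within the dotted lines and the red points beyond them.

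The 2 genes that were called in opposite directions were Mttp and Metrn. Mttp, the microsomal triglyceride transfer protein that loads lipid onto apolipoprotein B, measured 101 to 189 CPM in the controls (median 144), 179 to 253 CPM in shSCR/L-G6pc-/- (median 224) and 75.1 to 132 CPM in shChREBP/L-G6pc-/- (median 96.5). The last 2 ranges did not overlap, whereas each overlapped the controls. Its log2 fold change was 0.62 (adjusted p = 0.00276) and then -0.55 (SE 0.13, adjusted p = 0.00272), and the L-G6pc-/- groups differed by -1.18 (adjusted p = 1.06e-07). Metrn, meteorin, a secreted factor first described in the nervous system, measured 10.1 to 32.4 CPM, 7.43 to 16.7 CPM and 23.3 to 59.7 CPM in the same order, with log2 fold changes of -0.96 (adjusted p = 0.00973) and 0.93 (SE 0.19, adjusted p = 0.000982). Mttp (-0.41, adjusted p = 0.133) and Metrn (0.64, adjusted p = 0.104) were no longer called against control without the 4 libraries.

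Of the genes that had been near control in shSCR/L-G6pc-/- and became abnormal, 272 were higher and 389 lower, and of those that could not be placed before, 325 were higher and 203 lower. Ttpa, the alpha-tocopherol transfer protein that loads vitamin E onto lipoproteins, measured 372 to 572 CPM in the controls (median 468), 296 to 532 CPM in shSCR/L-G6pc-/- (median 428) and 99.2 to 216 CPM in shChREBP/L-G6pc-/- (median 142). Every shChREBP/L-G6pc-/- library lay below every library of the other 2 groups. The log2 fold change was -1.65 (SE 0.14, adjusted p = 4.2e-10), and it was -1.61 (adjusted p = 5.88e-09) in shChREBP/L-G6pc+/+ against the same controls. Sec62, a component of the protein translocation channel of the endoplasmic reticulum, measured 418 to 489 CPM against 190 to 319 CPM (-0.82, SE 0.10, adjusted p = 4.36e-07), with -0.82 also in shChREBP/L-G6pc+/+ (adjusted p = 4.38e-06). Bola1, a mitochondrial protein of iron-sulfur cluster biology, measured 29.8 to 39.7 CPM against 4.96 to 18.6 CPM (-1.42, SE 0.17, adjusted p = 4.36e-07) and stood at -1.10 (adjusted p = 0.000273) in shChREBP/L-G6pc+/+.

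Aplp2, amyloid precursor-like protein 2, and Slc10a1, the sodium-dependent bile acid transporter NTCP, also fell. Aplp2 measured 218 to 320 CPM in the controls (median 253), 283 to 397 CPM in shSCR/L-G6pc-/- and 72.2 to 109 CPM in shChREBP/L-G6pc-/- (median 88.6), a log2 fold change of -1.52 (SE 0.12, adjusted p = 3.44e-11). Slc10a1 measured 89.8 to 131 CPM (median 116), 103 to 196 CPM and 21.4 to 68.4 CPM (median 38.1), a log2 fold change of -1.53 (SE 0.19, adjusted p = 8.64e-07). For neither gene did any shChREBP/L-G6pc-/- library reach the control range. In shChREBP/L-G6pc+/+ they stood at -1.254 (adjusted p = 1.19e-08) and -1.15 (adjusted p = 0.000884).

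The 8 letters shared with the hairpin's target were counted in the longest annotated 3' untranslated region of each gene. Of 9661 tested genes with such a region 286 (2.96%) held them, against 25 of 612 (4.08%) among the genes called lower in shChREBP/L-G6pc-/- and 17 of 680 (2.5%) among those called higher. Of the genes that were lower with shChREBP in both genotypes, each against its own shSCR group, 9 of 91 (9.89%) held the letters, with a median region length of 1364 bases against 1223 for all. Among those higher with shChREBP in both genotypes it was 0 of 34, and among those lower in shSCR/L-G6pc-/- against control 2 of 102 (1.96%). Dcun1d1, a regulator of cullin neddylation, was one of the genes with the letters, at a log2 fold change of -0.52 (SE 0.09, adjusted p = 0.000196) in shChREBP/L-G6pc-/- and -0.53 (adjusted p = 0.00146) in shChREBP/L-G6pc+/+. A match of letters is a description, and whether the hairpin acts at these places was not tested.

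Genes of the antioxidant programme controlled by NRF2 rose. NRF2 (Nfe2l2) is the transcription factor that binds antioxidant response elements and induces glutathione, quinone and NADPH enzymes. Of 49 genes on the list 41 could be tested, and 22 were called higher and 1 lower (median 0.50 on the log2 scale, against 0.01 for all genes and 6.87% called higher). In shSCR/L-G6pc-/- 5 were higher and 0 lower (1 at an unadjusted p under 0.05, 0 by DESeq2), and without the 4 libraries that stood apart 10 remained higher. Averaged over the 41 genes, shChREBP/L-G6pc-/- libraries lay 0.24 to 1.27 above the control mean on the log2 scale (median 0.70) and controls between -0.11 and 0.09. All 9 libraries were thus above all 8 controls in this average. The sum over all 49 genes, tested or not, overlapped, at 17359 to 20245 CPM in the controls (median 19588) and 19931 to 28934 CPM in shChREBP/L-G6pc-/- (median 21577).

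Ugdh, UDP-glucose 6-dehydrogenase, which supplies glucuronic acid, measured 52.7 to 74.7 CPM in the controls (median 62.1) and 81.7 to 343 CPM in shChREBP/L-G6pc-/- (median 182), with no overlap and a log2 fold change of 1.64 (SE 0.19, adjusted p = 1.68e-07). Srxn1, sulfiredoxin, which repairs overoxidised peroxiredoxins, measured 121 to 187 CPM (median 167) against 204 to 1842 CPM (median 479), again without overlap (2.29, SE 0.33, adjusted p = 6.57e-06; 1.01 without the 4 libraries, adjusted p = 0.000662). The glutathione transferases followed, since Gstm1 measured 427 to 490 CPM (median 471) against 488 to 2787 CPM (median 1131; log2 fold change 1.48, SE 0.22, adjusted p = 1.11e-05) and Gstm3 15.3 to 33.9 CPM (median 21.3) against 41.9 to 581 CPM (median 186; 3.40, SE 0.43, adjusted p = 9.48e-07). These folds were 0.76 and 1.93 without the 4 libraries (adjusted p = 0.00394 and 0.000358). Gstm genes are close paralogs, and reads may be divided between them. Cbr3, a carbonyl reductase, rose from 0.505 to 3.18 CPM to 3.68 to 238 CPM (5.04, SE 0.69, adjusted p = 3.64e-06; 2.66 without the 4 libraries, adjusted p = 0.00156). Gclc, the catalytic subunit of glutathione synthesis, and the quinone reductase Nqo1 were higher by 0.86 (SE 0.16, adjusted p = 0.00037) and 1.44 (SE 0.30, adjusted p = 0.000861). Hmox1, heme oxygenase 1, was not called by edgeR (0.67, SE 0.25, adjusted p = 0.0679), but it was by limma-voom (adjusted p = 0.0495), with no filter on low counts (0.0465), with library size alone (0.0462), with only the 2 groups in the fit (0.0183) and without control s1 (0.0298).

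To show the sequence around these genes, the promoter windows of RefSeq for GRCm38.p6, from 250 bases before to 50 after the gene start, were searched on both strands for the antioxidant response element core TGACNNNGC. It occurred in 12.4% of all 32851 windows, in 17.2% of the tested genes with a window and in 21.3% of the genes called higher. On the NRF2 list it occurred in 11 of 36 (30.6%), and in 8 of the 21 called higher (38.1%), namely Ugdh, Srxn1, Pgd, Nfe2l2, Abcc4, Txnrd1, Prdx1 and Me1. The windows of the pair with the clearest separation from control are printed with the matched letters in capitals, Ugdh from chr5:65435793-65436092 on the minus strand and Srxn1 from chr2:152105274-152105573 on the plus strand. A match does not show binding.
Ugdh: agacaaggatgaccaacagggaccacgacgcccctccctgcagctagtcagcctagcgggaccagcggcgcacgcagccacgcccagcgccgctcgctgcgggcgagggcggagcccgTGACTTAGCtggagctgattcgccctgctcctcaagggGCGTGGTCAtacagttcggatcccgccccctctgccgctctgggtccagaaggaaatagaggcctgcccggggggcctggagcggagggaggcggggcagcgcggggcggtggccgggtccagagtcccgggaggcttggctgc
Srxn1: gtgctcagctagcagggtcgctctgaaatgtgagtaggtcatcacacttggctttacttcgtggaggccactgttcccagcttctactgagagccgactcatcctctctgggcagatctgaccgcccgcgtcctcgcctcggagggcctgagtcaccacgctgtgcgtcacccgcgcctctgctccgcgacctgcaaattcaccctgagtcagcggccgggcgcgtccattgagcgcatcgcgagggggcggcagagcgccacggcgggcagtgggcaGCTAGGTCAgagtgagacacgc

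Most of the interferon-stimulated genes that could be tested rose. These genes are induced through interferon regulatory factors when nucleic acids are sensed or interferon is received. Of 58 genes 49 could be tested, and 35 were called higher and 0 lower by edgeR (0 lower also at an unadjusted p under 0.05 and by DESeq2; median 0.82), against 3 higher in shSCR/L-G6pc-/- and 4 in shChREBP/L-G6pc+/+. Of all genes 6.87% were called higher. The list median was 0.34 in shSCR/L-G6pc-/- and 0.33 in shChREBP/L-G6pc+/+, and between the L-G6pc-/- groups 17 members were called. In the fit without the 4 libraries 19 were higher than in the controls. The average over the 49 genes lay 0.25 to 1.247 above the control mean on the log2 scale in shChREBP/L-G6pc-/- (median 0.83) and between -0.24 and 0.17 in the controls, so that no library overlapped in this average. The sum over all 58 genes, tested or not, did overlap, at 6320.6 to 7824.5 CPM in the controls and 7695.3 to 11375 CPM in shChREBP/L-G6pc-/-. Usp18, which removes ISG15 from proteins and restrains interferon signalling, measured 15.6 to 23.8 CPM (median 18.2) against 31.7 to 74.9 CPM (median 49.8), a log2 fold change of 1.54 (SE 0.18, adjusted p = 2.99e-07), and it was among the 3 that had been higher in shSCR/L-G6pc-/- (0.80, adjusted p = 0.0107). Irf7, an interferon regulatory factor, measured 16.5 to 32.9 CPM (median 30.9) against 40.6 to 138 CPM (median 83.9; 1.55, SE 0.24, adjusted p = 2.42e-05). Ifit3, a partner of the RNA-binding protein IFIT1, measured 11.1 to 32 CPM (median 18.3) against 34.7 to 103 CPM (median 55.5; 1.62, SE 0.23, adjusted p = 4.63e-06), though its copy Ifit3b is nearly identical and shares reads. Zbp1, a sensor of Z-form nucleic acid, was higher by 1.76 (SE 0.28, adjusted p = 3.03e-05) and was also higher in shChREBP/L-G6pc+/+ (1.39, adjusted p = 0.00426).

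The core of the interferon-stimulated response element, 2 copies of GAAA with 2 bases between them, was found on either strand in 3.44% of all promoter windows, 3.79% of tested genes, 8.26% of the genes called higher and 18 of 36 (50%) of the listed interferon genes with a window, 14 of 26 (53.8%) of those called higher. The Ifit3 window, chr19:34583279-34583578 on the plus strand, holds 2 matches in capitals.
Ifit3: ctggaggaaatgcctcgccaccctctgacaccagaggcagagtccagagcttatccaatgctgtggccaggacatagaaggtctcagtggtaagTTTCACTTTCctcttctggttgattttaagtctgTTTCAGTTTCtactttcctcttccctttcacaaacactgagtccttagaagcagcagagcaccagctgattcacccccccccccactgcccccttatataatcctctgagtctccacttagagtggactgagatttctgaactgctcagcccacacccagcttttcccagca

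Cell cycle genes were low in every group and higher in shChREBP/L-G6pc-/-. Of 45 genes of mitosis and the G2 to M transition only 18 were abundant enough to test, and some of these may have passed the abundance filter only through the group in which they were high, so their count is descriptive. Of the 18, 15 were called higher and 0 lower by edgeR (0 lower also at an unadjusted p under 0.05 and by DESeq2), and 10 were higher without the 4 libraries that stood apart. Of all genes 6.87% were called higher with all libraries. The sum over all 45 genes, tested or not, was 97.7 to 208 CPM in the controls (median 121), 148 to 311 CPM in shSCR/L-G6pc-/- (median 201), 115 to 541 CPM in shChREBP/L-G6pc+/+ (median 164) and 213 to 853 CPM in shChREBP/L-G6pc-/- (median 342). All 9 shChREBP/L-G6pc-/- libraries exceeded the highest control. Cdc20, the activator of the anaphase-promoting complex, measured 0 to 1.01 CPM in the controls and 0.977 to 30.6 CPM in shChREBP/L-G6pc-/- (log2 fold change 4.50, SE 0.56, adjusted p = 8.28e-07), and Aurka, the spindle kinase Aurora A, 0.454 to 3.89 CPM and 3.42 to 32.9 CPM (3.40, SE 0.44, adjusted p = 1.22e-06). Plk1, polo-like kinase 1, did not overlap, at 0.486 to 6.56 CPM and 6.84 to 50.1 CPM (3.12, SE 0.57, adjusted p = 0.000199).

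Of 42 S phase and replication genes 27 were tested and 10 were higher (37%, against 6.87% of all genes), but only 1 without the 4 libraries. Some of the 27 may have passed the abundance filter only through a group in which they were high, so this count is descriptive. Summed over all 42 genes, tested or not, the ranges of the controls and shChREBP/L-G6pc-/- overlapped. Rrm2, a subunit of ribonucleotide reductase, was higher by 1.69 (SE 0.38, adjusted p = 0.00195) with all libraries, and without the 4 it stood at 1.204 and was not called (adjusted p = 0.120). Of 35 targets of p53, 26 were tested and 8 were higher (30.8%, against 6.87% of all genes), 4 without the 4 libraries. Some of the 26 may likewise have passed the filter only through a group in which they were high, so their count is descriptive too. The sum over all 35 was 963 to 2485 CPM in the controls (median 1645.5) and 1503 to 2659 CPM in shChREBP/L-G6pc-/- (median 1923), with overlap. In shChREBP/L-G6pc+/+ it was 1772 to 3308 CPM (median 3149). Cdkn1a, the cell cycle inhibitor p21, measured 11.4 to 53.5 CPM in the controls (median 34.7) and 35.9 to 130 CPM in shChREBP/L-G6pc-/- (median 58.7), a log2 fold change of 1.23 (SE 0.31, adjusted p = 0.0062) that was 0.79 without the 4 libraries (adjusted p = 0.211). The groups overlapped.

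**Figure D4:**
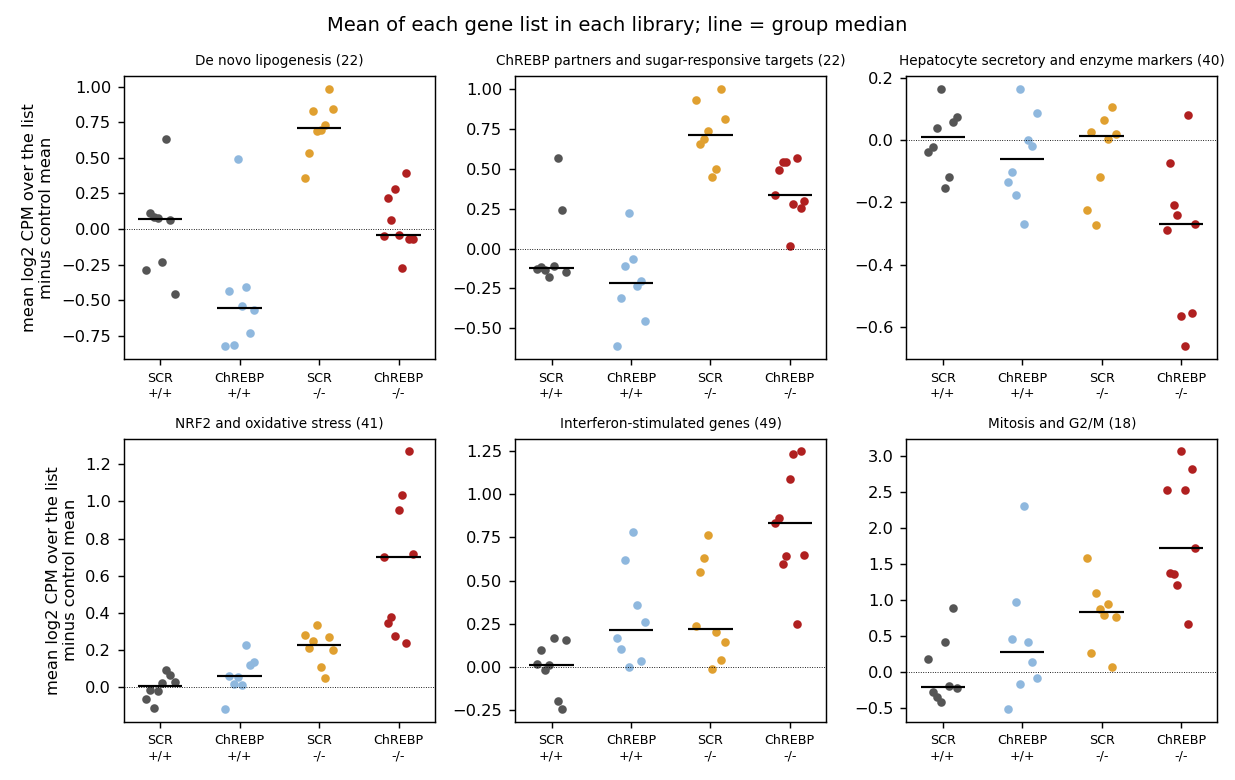
Mean log2 CPM over the tested genes of 6 lists in each library, as a difference from the mean of the 8 controls (vertical axis), by hairpin and L-G6pc genotype (horizontal axis). Points are libraries, lines group medians, and the number of genes stands in each title. Lipogenic genes are near 0 in shChREBP/L-G6pc-/- (median -0.04, against 0.71 in shSCR/L-G6pc-/-), while all its libraries lie above all controls for the NRF2 and interferon lists.

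Some genes of the matrix, lysosomal and macrophage lists were called higher, where 6.87% of all genes were called higher and 6.37% lower. Of 34 tested genes of extracellular matrix and mesenchymal transition 13 were higher and 0 lower by edgeR (1 at an unadjusted p under 0.05, 1 by DESeq2), with a median of 0.34 on the log2 scale, but 2 without the 4 libraries. Some of these may have passed the abundance filter only through a group in which they were high, so the count is descriptive. Summed over all 46 genes of that list, tested or not, the ranges overlapped. They were 2474 to 3056 CPM in the controls (median 2730) and 2480 to 3374 CPM in shChREBP/L-G6pc-/- (median 3005). Lgals1, galectin-1, measured 28.8 to 74.9 CPM in the controls (median 42.7) and 67.5 to 153 CPM in shChREBP/L-G6pc-/- (median 99.7; 1.18, SE 0.20, adjusted p = 8.34e-05; without the 4 libraries 0.92, adjusted p = 0.0161). The fibrillar collagens Col1a1 (0.70, adjusted p = 0.24) and Col3a1 (0.72, adjusted p = 0.0799) were not called by edgeR. Limma-voom called both (1.01, adjusted p = 0.045, and 0.89, adjusted p = 0.0154), and Col3a1 also passed in limma on the deposited normalized values (adjusted p = 0.0496) and with library size alone (0.0466). On leaving out control s2 both were called (adjusted p = 0.0264 and 0.0365), and Col3a1 also on leaving out control s3 (0.0114). Col1a1 stood at 0.17 without the 4 libraries (adjusted p = 0.903). Of 40 lysosomal and autophagy genes 12 were higher and 1 lower, and 1 was higher without the 4 libraries. Of 20 tested Kupffer cell and macrophage genes 5 were higher by edgeR, and without the 4 libraries 0 were, where 5 passed an unadjusted p of 0.05. Among them Clec4f, a lectin of Kupffer cells, was higher by 0.54 (SE 0.14, adjusted p = 0.0064) and Cd5l, a secreted macrophage protein, by 0.64 (SE 0.19, adjusted p = 0.0191), with 0.40 and 0.45 in the smaller set (adjusted p = 0.17 and 0.314). The sum over the 25 genes of that list was 1444 to 2346 CPM in the controls and 2067 to 3009 CPM in shChREBP/L-G6pc-/-. These ranges overlapped, and whether this sum was related to the matrix, lysosomal and interferon genes was not tested.

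The 31 oncofetal and progenitor genes in the table summed to 163 to 432 CPM in the controls, 330 to 624 CPM in shSCR/L-G6pc-/- and 364 to 1556.5 CPM in shChREBP/L-G6pc-/-, with overlap. Of the 31 genes 17 were tested, and some may have passed the abundance filter only through a group in which they were high. Their count is therefore descriptive. Of the 17, 9 were called higher (median 1.19), against 6.87% of all genes. With the 4 libraries left out 4 were higher (median 0.57), namely H19, Ly6d, Cbr3 and Anxa5, while Igf2bp2 (0.94, adjusted p = 0.0859) and Anxa2 (0.53, adjusted p = 0.205) were no longer called. H19, Ly6d, the RNA-binding protein gene Igf2bp2 (1.19) and the trefoil factor Tff3 (1.53) had already been so in shSCR/L-G6pc-/-, and Cbr3, Mcm2, S100a11 and the annexins Anxa2 and Anxa5 had not been called there. Spp1, osteopontin, was higher by 0.96 (SE 0.27, adjusted p = 0.0132), and by 0.86 without the 4 libraries (adjusted p = 0.117). The endocrine factor Fgf21 measured 0.909 to 8.08 CPM in the controls (median 1.49) and 4.78 to 29.4 CPM in shChREBP/L-G6pc-/- (median 16.8; 2.39, SE 0.43, adjusted p = 0.000196), overlapping in part. It was not called in shSCR/L-G6pc-/- (0.86, adjusted p = 0.454), and the L-G6pc-/- groups differed by 1.54 (adjusted p = 0.0142).

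Many genes that define the differentiated hepatocyte fell, Alb among them. Of 40 secretory and enzyme markers 18 were lower and 3 higher (median -0.42, against 6.37% of all genes called lower), where 2 were lower and 3 higher in shSCR/L-G6pc-/-. In the fit without the 4 libraries 2 were lower and 2 higher, with a list median of -0.23. The part of the smaller group size in these lost calls was not tested. Ttr, transthyretin, measured 5950 to 6784 CPM in the controls (median 6322) and 3195 to 6493 CPM in shChREBP/L-G6pc-/- (median 4717; -0.44, SE 0.11, adjusted p = 0.00397), and -0.27 without the 4 libraries (adjusted p = 0.187). Serpina1a, an alpha-1-antitrypsin, was lower by 0.50 on the log2 scale (-0.50, SE 0.11, adjusted p = 0.00201), and -0.30 without them (adjusted p = 0.142). Among 31 hepatocyte transcription factors 11 were lower and 0 higher by edgeR (0 higher also at an unadjusted p under 0.05 and by DESeq2; median -0.28), 5 of them also without the 4 libraries. Nr1i3, the xenobiotic receptor CAR, measured 119 to 259 CPM (median 200) against 47 to 203 CPM (median 83.7; -1.05, SE 0.19, adjusted p = 0.000253; -1.11 without the 4 libraries, adjusted p = 0.000358). Hnf4a itself was not called (-0.22, SE 0.12, adjusted p = 0.276), whereas Hnf4aos, the antisense transcript at its locus, fell from 7.76 to 23.3 CPM to 1.53 to 6.84 CPM (-2.16, SE 0.36, adjusted p = 6.5e-05). The strand setting of the counting is not stated, so reads of this pair may be mixed.

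Cytochrome P450 enzymes, 35 of which were tested, included 13 that were lower and 3 that were higher, namely Cyp2a22, Cyp2a5 and Cyp2d9 (median -0.35). Among all genes 6.37% were called lower and 6.87% higher. With the 4 libraries left out 5 were lower and edgeR called 0 higher (4 at an unadjusted p under 0.05; median -0.32). Cyp2c50, of a family of close paralogs, measured 170 to 357 CPM in the controls (median 268) and 42 to 128 CPM in shChREBP/L-G6pc-/- (median 87.1), without overlap (-1.62, SE 0.21, adjusted p = 1.33e-06). It was not called in shSCR/L-G6pc-/- (-0.37, adjusted p = 0.435), and the L-G6pc-/- groups differed by -1.247 (adjusted p = 0.00017). Cyp4a12b, a male-biased fatty acid hydroxylase nearly identical to Cyp4a12a that is counted among the sex-biased genes, was instead higher (3.30, SE 0.58, adjusted p = 0.000143), at 0 to 4.09 CPM against 3.38 to 23.5 CPM. The major urinary proteins Mup17 (-3.57, adjusted p = 0.000889) and Mup12 (-2.72, adjusted p = 4.55e-05), pheromone carriers encoded by near-identical copies, were among the largest falls, and Mup17 was not called without the 4 libraries (-2.95, adjusted p = 0.0571). Mup12 had also been lower in shSCR/L-G6pc-/- (-2.39), and Mup21 was called higher in shChREBP/L-G6pc-/- (1.30). Of the 25 tested major urinary protein and sex-biased genes 8 were lower and 4 higher, with a list median of 0.02.

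Of 27 genes of cholesterol synthesis and uptake 11 were lower and 1 higher (median -0.40), against 1 lower and 1 higher in shSCR/L-G6pc-/- and 2 lower and 1 higher without the 4 libraries, where the list median was -0.39. In shChREBP/L-G6pc+/+ against the same controls 7 of the 27 were also lower (median -0.45), where 3.23% of all genes were. With all libraries 6.37% of all genes were called lower and 6.87% higher. Msmo1, a sterol C4-demethylating oxidase, measured 126 to 343 CPM in the controls (median 238) and 99.1 to 165 CPM in shChREBP/L-G6pc-/- (median 117; -0.88, SE 0.20, adjusted p = 0.00198), and it had been lower in shSCR/L-G6pc-/- as well (-1.02, adjusted p = 0.00158). Among 23 genes of lipoprotein assembly 8 were lower and 2, Apoa4 and Apoc2, were higher. The 8 included Mttp, Lcat, Apoa1, Pltp and Angptl8. With the 4 libraries left out Lcat alone was lower (-0.64, adjusted p = 0.00492), and the same 2 were higher. The list median was -0.08 with all libraries and -0.09 in the smaller set, where Pltp stood at -0.42 (adjusted p = 0.357). In shSCR/L-G6pc-/- 5 of the 23 were higher and 0 lower by edgeR (2 at an unadjusted p under 0.05, 0 by DESeq2). In shChREBP/L-G6pc+/+ 6 of the 23 were lower (median -0.29). Apoc3, an inhibitor of lipoprotein lipase, was back (-0.08 after 0.63).

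Groups of housekeeping genes had fewer calls than the 13.2% of all genes. Of 66 oxidative phosphorylation subunits 2 were higher and 1 lower (4.55% called), of 53 cytosolic ribosomal proteins 1 was lower (1.89%), and of 35 proteasome subunits 3 were higher (8.57%). Of 20 sinusoidal endothelial and 18 stellate cell genes 0 were called by edgeR, while 2 in each list passed an unadjusted p of 0.05 and limma-voom called 2 stellate cell genes and DESeq2 0.

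**Figure D5:**
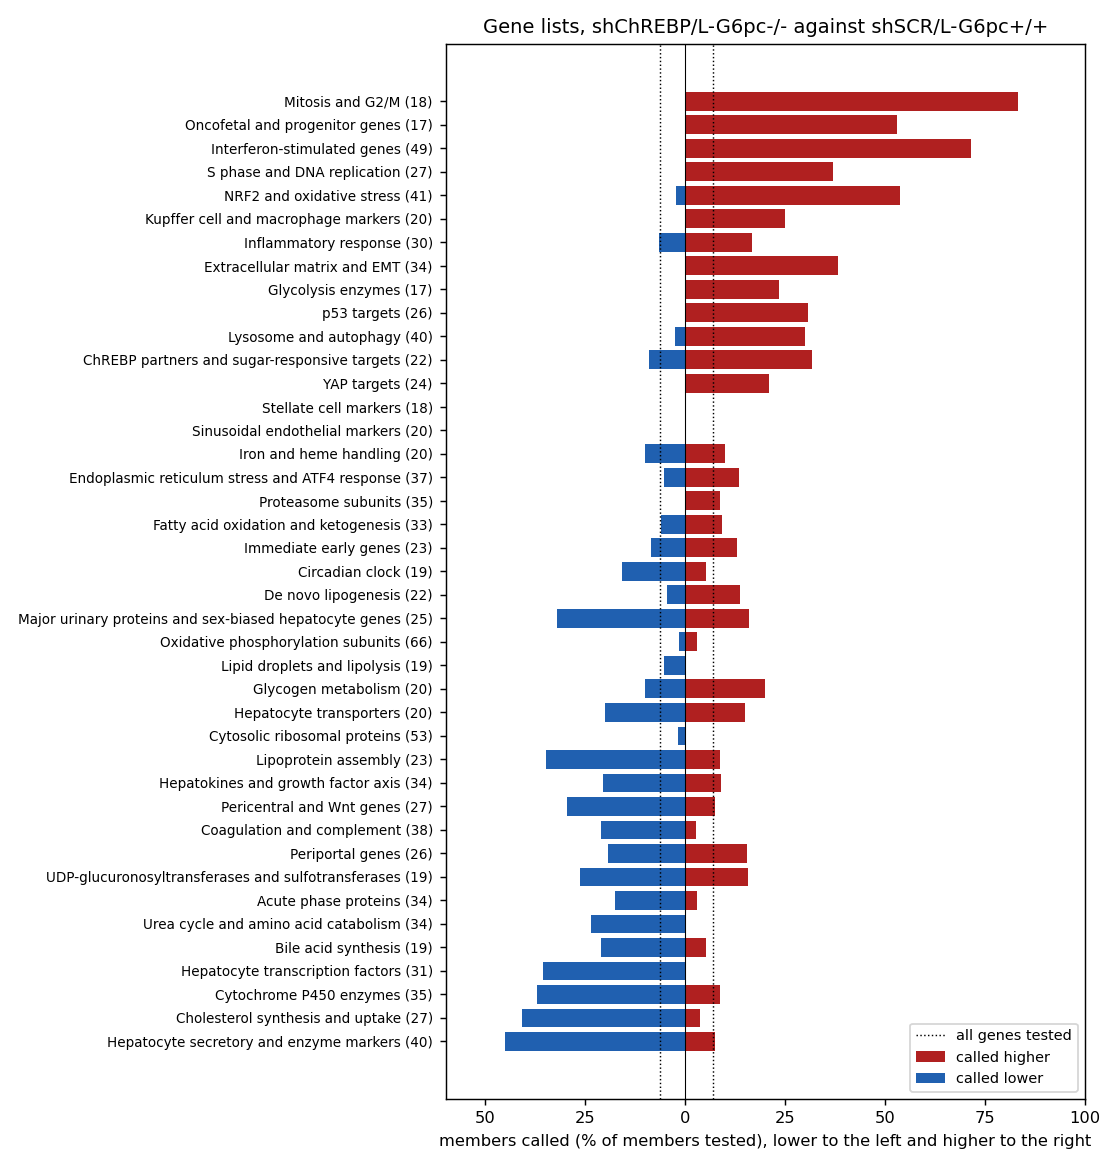
Members called lower (blue, to the left) and higher (red, to the right) in shChREBP/L-G6pc-/- against shSCR/L-G6pc+/+, in percent of the members tested (horizontal axis), for each list (vertical axis, number tested in parentheses) ordered by median fold change. Dotted lines mark all genes, 6.37% lower and 6.87% higher. Mitosis (15 of 18), interferon (35 of 49) and NRF2 genes (22 of 41) extend far to the right, and hepatocyte markers (18 of 40) and cholesterol genes (11 of 27) to the left.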

How the data were processed

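Liver RNA of 33 libraries in 4 groups (8, 8, 8 and 9) was sequenced by the authors with a 3' end method (QuantSeq) in single reads. Per the labels and the methods of the study, reads were aligned to GRCm38 with HISAT, processed with SAMtools and counted per Ensembl gene with HTSeq. The counts were deposited as whole numbers, unnormalized. The authors also deposited signal values made with voom of limma, on a linear scale, which were used only as an alternative after taking log2. Of 25988 genes, 25817 were named from the GENCODE M21 annotation of GRCm38 and 171 were left unnamed.

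Counts were tested with edgeR 4.0.16 (R 4.3.3): filterByExpr (minimum count 10, minimum total 15), TMM normalization, a quasi-likelihood fit over all 4 groups, and Benjamini-Hochberg adjustment over the 10179 genes kept, with a threshold of 0.05. Comparisons share the 1 estimate of spread. Standard errors and 95% intervals come from the quasi-likelihood F statistic. CPM are TMM-scaled, and list averages use log2 CPM with a prior count of 2. As reads are counted at the 3' end, levels are not compared between genes. For 4 genes an exact two-sided permutation test (scipy 1.17.1) was run on log2 CPM. The scripts were tested on simulated counts.

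Named genes are Mlxipl, G6pc and the genes of the study's primer table that are described, the 15 largest rises and falls among called genes, up to 10 genes with the smallest p per class and up to 6 per list. Genes outside this rule (Slc2a2, Fasn, Acaca, Acly, Tm6sf2, Arrdc4, Klf10, Igf1, Gclc, Nqo1, Dcun1d1, Apoc3 and others of the lists) were chosen after their values were seen. The members and lists were chosen with earlier results of these data known. Alternatives were other normalizations, filters, tools (DESeq2 1.42.0, limma-voom 3.58.1) and intervals, and leaving out libraries. Counting error is limited by 1497843 to 3546852 reads per library. Results for some genes are not reported here. Reads of near-identical genes may be divided between them.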

Additional observations from a re-analysis of the deposited data

Results flagged for a closer look

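Single libraries stood away from the rest of their group for 10 of the 98 groups of values examined, where chance gives about 1 in 20. In the controls these were library s6 for Gpd1 (374 CPM, next 313) and Tkfc (312 CPM, next 182), s2 for Alb (12466 CPM, the lowest, next 14101) and Wfdc2 (46.1 CPM, next 30.9), s5 for Aurka (3.89 CPM, next 1.58), s8 for Mup12 (78.2 CPM, next 40.8) and s3 for the summed lymphocyte markers (92.4 CPM, next 13.7).

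In shChREBP/L-G6pc-/- they were s31 for Lepr (44.5 CPM, next 23.2), s32 for Cbr3 (238 CPM, next 110.465) and s32 for the summed lymphocyte markers (18.4 CPM, next 10.7). Each is the highest of its group except Alb in s2. None of the calls of Tkfc, Alb, Lepr, Cbr3, Aurka, Mup12 and Wfdc2 was lost in any fit that left out 1 library.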

How the results depend on the processing

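No paired analysis was possible because the replicate numbers are unique across the series, so the groups share none. The largest dependence was on libraries s29, s30, s32 and s33: without them 321 genes were called in place of 1347 (175 higher, 146 lower), 98 stayed changed in place of 156 and 223 became abnormal in place of 1189, and members called over all lists, counted once per list, fell to 134 from 361. The part of the smaller group size in this was not tested. The width of the interval set the number of genes back at control, 17 with a narrower width and 150 within 2-fold. Testing against a change of 1.2-fold (glmTreat) left 488 genes, 296 higher and 192 lower. Leaving out 1 library gave 997 to 1407 called genes (508 to 714 higher, 489 to 693 lower), 261 to 340 in shSCR/L-G6pc-/-, 61 to 100 back (61 without control s5), 124 to 158 stayed, 858 to 1249 became, and 3 to 3 of the 4 exact tests past the threshold; the fewest calls were without s30. Other normalizations, filters and tools gave 1199 to 1458 called genes. Of 208 named genes that were called, 175 were called under every alternative other than that without the 4 libraries and 97 under that one too. None of the 208 changed direction under any alternative. Some list medians near 0 did change sign without the 4 libraries, such as that of the cholangiocyte markers (0.06 to -0.24).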
